A study of Mus musculus with 6 samples.

Results

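Mitosis genes code for the proteins that carry a cell from G2 through chromosome segregation to cytokinesis. A set of 35 of them was followed in DM1 myoblasts with and without miR-322/-503 overexpression, and each was matched by its gene symbol to its row among the 55421 genes of the count table. All 35 were found and all 35 passed the filter on low counts. Both groups were stable lines made from C2C12, a mouse myoblast line whose cells form multinucleate myotubes in low serum. Both carried a GFP plasmid with 200 repeats in its transcript (named CUG200), which models the expanded repeat of myotonic dystrophy type 1 (DM1). The 3 control libraries came from the line with the empty vector pLL4.0, and the 3 miR-322/-503 libraries from the line with the same vector expressing both microRNAs. All 6 were taken on day 4 of differentiation in low serum medium. Since each group was a single line, a difference between the lines cannot be told apart from the microRNAs.

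In a dividing cell the mitosis genes are transcribed late, rising in G2 and falling after division. Their promoters are held off in quiescent cells by the DREAM complex and switched on by B-Myb (Mybl2) and FoxM1 acting through the MuvB core. Many of these promoters carry a CHR element (cell cycle genes homology region) near the start of transcription and CCAAT boxes, bound by NF-Y, upstream of it. Myoblasts leave the cell cycle before they fuse, and mononuclear cells that have not fused can still divide, so the summed mitotic transcripts of a differentiating culture are commonly read as a measure of cycling cells. In bulk RNA, fewer dividing cells and less mitotic RNA per dividing cell cannot be told apart.

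The sequences of the microRNAs and of the member promoters frame the values that follow. miR-322-5p and miR-503-5p lie next to each other on the X chromosome and belong to the miR-16 family, known for repressing G1/S regulators. They are shown (RefSeq, GRCm38.p6) because a direct target would be sought through their seeds, bases 2 to 8, which are in capitals.
mmu-miR-322-5p (chrX:53054306-53054327, minus strand): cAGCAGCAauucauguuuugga
mmu-miR-503-5p (chrX:53054027-53054049, minus strand): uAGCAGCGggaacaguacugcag

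The heptamers that pair with these seeds (TGCTGCT and CGCTGCT, and GCTGCTA, which pairs with the shared seed bases before an A) were searched in the longest annotated 3′UTR of each gene, on the transcript strand. They were found in 5 of the 35 members (14.3%), against 4461 of 13467 genes (33.1%) with a mean of at least 10 counts. The 3′UTRs of the members were shorter, with a median of 796 bases against 1339. The 5 genes were Cdk1, Aurka, Kif23, Birc5 and Nek2. Over any annotated 3′UTR the count was 6, with Ccna2 added. The sites below are given with the heptamers in capitals, for the gene with the most sites and for the one with the largest fall among the 5.
Cdk1 (chr10:69337690-69337716, minus strand): cgtatcgctgTGCTGCTtagtgtaatt
Cdk1 (chr10:69337249-69337278, minus strand): tgtggttcccTGCTGCTGCTgggaactggg
Cdk1 (chr10:69335643-69335669, minus strand): agagaggagaGCTGCTAgctctgagaa
Kif23 (chr9:61917455-61917482, minus strand): aacaaacaaaTGCTGCTAttgattagct

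All 5 members with a heptamer were lower in the miR-322/-503 group, with a median log2 fold change of -0.75 and a range from -0.96 to -0.60. The 30 without one in the longest 3′UTR, Ccna2 among them, had a median of -0.68 and a range from -1.33 to -0.30. Of those 30, 28 passed the test and were lower. The range of the genes with a heptamer lay within that of the genes without one. A match is only a description of the letters, not a site shown to be used.

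Promoters were available for 29 of the 35 members, as windows of 300 bases from 250 before to 50 after the annotated start (RefSeq, GRCm38.p6). Ccna2, Aurkb, Kif20a, Tpx2, Incenp and Foxm1 had no entry. A CHR element, searched as TTTGAA or TTCGAA on both strands, occurred in 21 of 29 member promoters (72.4%), against 19.4% of 27025 genes and 9 of 37 DNA replication genes (24.3%). A CCAAT box, searched as CCAAT on both strands, occurred in 22 member promoters (75.9%), against 37.9% of all genes and 62.2% of DNA replication genes. Both motifs stood together in 19 of 29 member promoters (65.5%), against 7.70% of all genes. In 20 promoters the CHR element lay between 30 bases before and 50 after the start, a window chosen after its positions were seen, in which 4.10% of all genes had one.

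The 6 promoters below show the range among the members. Ccnb2, Cdc20, Kif23 and Cdk1 carry both motifs, Ccnb1 has CCAAT boxes alone and Mybl2 has neither. Capitals mark the CHR elements and CCAAT boxes, the latter also in reverse as ATTGG. Each runs 5′ to 3′ on the strand of its gene.
Ccnb2 (chr9:70421505-70421804, minus strand): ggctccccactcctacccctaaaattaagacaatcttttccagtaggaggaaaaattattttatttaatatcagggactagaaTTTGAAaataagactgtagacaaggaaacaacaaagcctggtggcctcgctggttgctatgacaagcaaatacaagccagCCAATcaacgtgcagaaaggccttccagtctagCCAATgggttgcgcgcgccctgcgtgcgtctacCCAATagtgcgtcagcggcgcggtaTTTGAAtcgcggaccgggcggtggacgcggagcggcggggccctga
Cdc20 (chr4:118437294-118437593, minus strand): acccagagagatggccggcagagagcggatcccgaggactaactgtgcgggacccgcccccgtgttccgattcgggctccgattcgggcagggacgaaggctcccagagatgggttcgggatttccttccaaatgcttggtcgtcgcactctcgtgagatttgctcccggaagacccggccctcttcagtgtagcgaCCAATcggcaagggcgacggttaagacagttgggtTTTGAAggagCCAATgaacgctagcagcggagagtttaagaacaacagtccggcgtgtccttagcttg
Kif23 (chr9:61946750-61947049, minus strand): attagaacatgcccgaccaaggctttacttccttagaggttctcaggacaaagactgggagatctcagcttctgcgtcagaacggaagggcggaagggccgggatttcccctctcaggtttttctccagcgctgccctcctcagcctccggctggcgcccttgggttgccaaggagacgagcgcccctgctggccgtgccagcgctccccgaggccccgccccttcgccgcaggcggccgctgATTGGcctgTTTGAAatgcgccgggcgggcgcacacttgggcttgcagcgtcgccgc
Cdk1 (chr10:69352863-69353162, minus strand): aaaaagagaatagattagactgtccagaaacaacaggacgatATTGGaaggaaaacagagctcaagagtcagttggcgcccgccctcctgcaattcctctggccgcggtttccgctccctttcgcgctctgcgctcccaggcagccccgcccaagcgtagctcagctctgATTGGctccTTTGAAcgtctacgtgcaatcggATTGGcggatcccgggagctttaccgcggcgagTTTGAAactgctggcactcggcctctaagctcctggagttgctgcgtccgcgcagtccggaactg
Ccnb1 (chr13:100786437-100786736, minus strand): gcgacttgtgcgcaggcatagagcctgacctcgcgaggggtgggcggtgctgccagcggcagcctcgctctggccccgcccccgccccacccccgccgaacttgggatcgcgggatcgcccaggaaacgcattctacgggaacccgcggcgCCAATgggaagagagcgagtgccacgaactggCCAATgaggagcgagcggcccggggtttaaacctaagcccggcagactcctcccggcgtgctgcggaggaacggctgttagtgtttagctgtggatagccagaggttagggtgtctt
Mybl2 (chr2:163054385-163054684, plus strand): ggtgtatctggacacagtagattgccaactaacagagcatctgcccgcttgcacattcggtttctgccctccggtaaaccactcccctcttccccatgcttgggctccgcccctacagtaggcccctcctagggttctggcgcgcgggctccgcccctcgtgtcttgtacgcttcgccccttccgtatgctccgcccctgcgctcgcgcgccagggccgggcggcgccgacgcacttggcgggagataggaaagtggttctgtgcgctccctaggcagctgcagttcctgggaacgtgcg

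**Figure D1:**
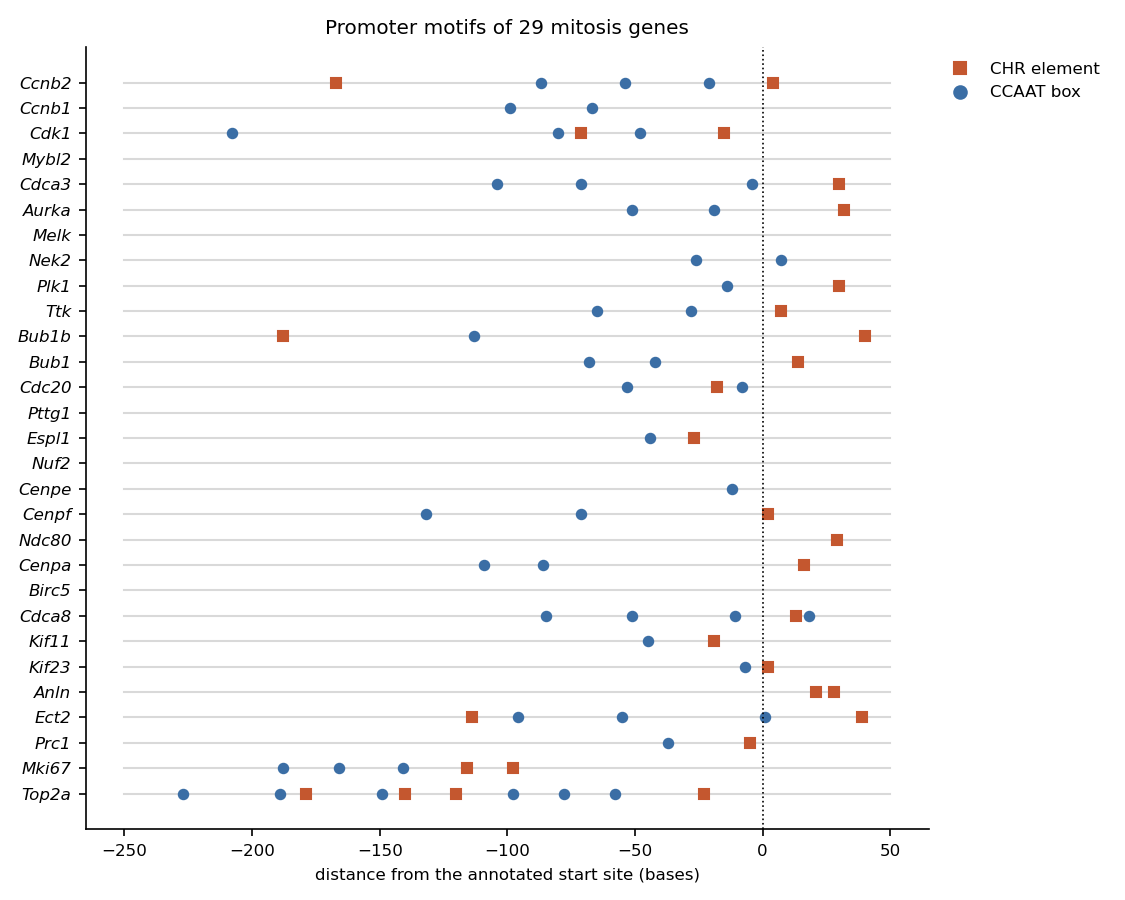
Positions of CHR elements (squares) and CCAAT boxes (circles) in the promoters of 29 mitosis genes, in bases from the annotated start site (dotted line), 1 gene per row and grouped by role. CHR elements gather around the start in 20 promoters and CCAAT boxes mostly upstream of it, while Mybl2, Melk, Pttg1, Nuf2 and Birc5 have neither.

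The 19 members with both motifs had a median log2 fold change of -0.73 (range -1.33 to -0.30), and all 19 were lower. The 5 with neither motif (Nuf2, Melk, Mybl2, Pttg1 and Birc5) had a median of -0.70 (range -0.87 to -0.40), and 4 of them were lower. The smaller range lay within the larger one.

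Depth was alike in the 6 libraries, with 73532084 to 92157388 deposited counts, equal to 18383021 to 23039347 read pairs at about 4 counts per pair. Levels are given as CPM, counts scaled to a common library total, after TMM scaling, whose factors ran from 0.977 to 1.03, and are compared between libraries for 1 gene at a time. The overexpressed microRNAs could not be checked from these libraries. For Mir322 the control gave 1, 7 and 2 counts, while 17, 0 and 3 were found with miR-322/-503. Mir503 gave 1, 1 and 2, then 6, 4 and 5 counts, and both were too sparse to test. Muscle and other cell type markers are given after the members.

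With miR-322/-503 overexpression the mitosis genes were lower nearly as 1 block. All 35 members had a negative log2 fold change, 33 of 35 were lower by edgeR's quasi-likelihood test with a Benjamini-Hochberg adjusted p under 0.05, and 0 of 35 were higher. Over all 18140 genes tested, 15.5% were lower and 13.2% were higher by the same test. The median log2 fold change of the members was -0.69 with quartiles of -0.75 and -0.58, against -0.01 over all genes tested. In 34 of 35 members every miR-322/-503 library lay below every control library, which was the case for 23.5% of all genes tested. The falls were mostly moderate. Only Cdc20 and Ccnb2 passed the test with a log2 fold change below -1, 2 of 35 members, against 5.29% of all genes tested.

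Summed over the 35 members, the level in TPM, which is scaled per transcript length, was 1535 ± 41.3 in the control and 927 ± 32.3 in the miR-322/-503 libraries (SD, n = 3 each), or 60.4% of control. The control libraries held 1559, 1558 and 1487 TPM and the miR-322/-503 libraries 930.3, 958 and 894 TPM, so the groups were far apart. Top2a had the highest control level, with 125 ± 4.76 TPM, followed by Ccna2 with 91.3 ± 2.51 TPM and Pttg1 with 87.9 ± 5.43 TPM. At the other end were Mybl2 with 10.4 ± 2.69 TPM and Nek2 with 9.49 ± 1.005 TPM (SD, n = 3). Ccna2 and Pttg1, neighbours in this order, did not differ beyond their spread, and the same held for Mybl2 and Nek2. Mitotic transcripts were thus still plainly detected on day 4 in both lines.

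**Figure D2:**
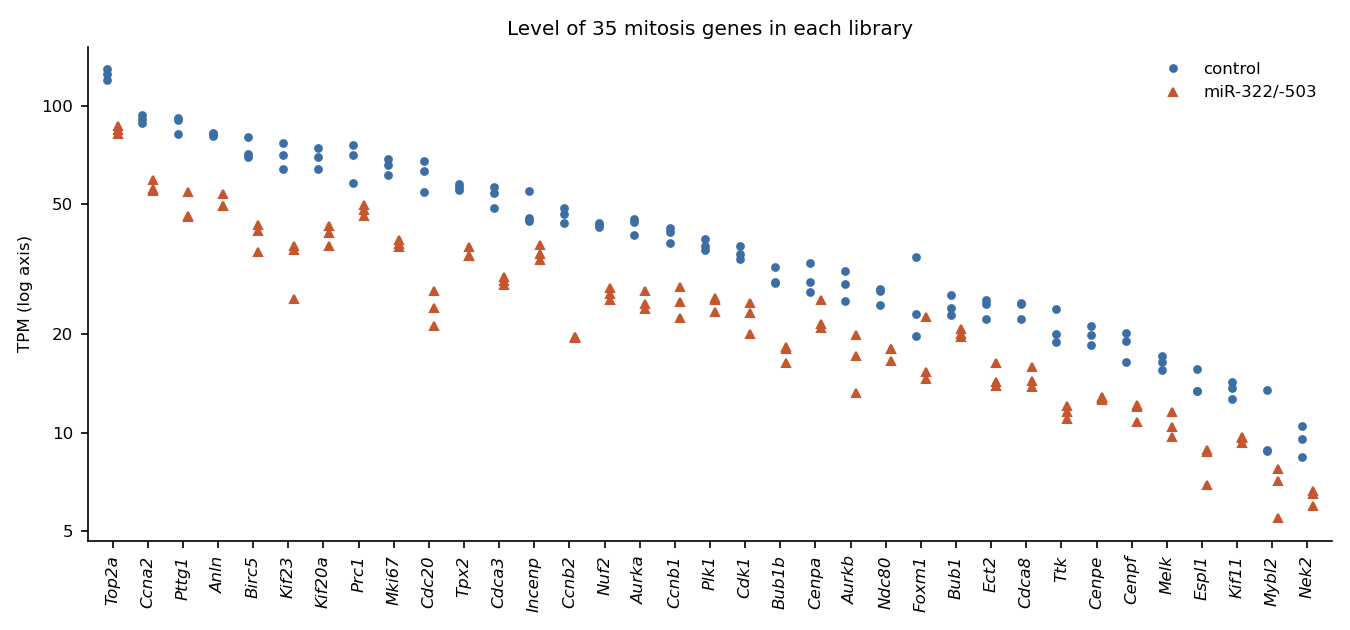
Level in TPM (log axis) of the 35 mitosis genes in each of the 3 control libraries (circles) and 3 miR-322/-503 libraries (triangles), ordered by the control mean from Top2a at 125 TPM to Nek2 at 9.49 TPM. The triangles lie below the circles for every gene but Foxm1, whose groups overlap.

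Among the cyclins and their kinase, all 4 members were lower, with a median log2 fold change of -0.68. Ccnb2, which encodes cyclin B2, had 38.7, 38.0 and 35.5 CPM in the control and 15.7, 15.6 and 16.8 CPM in the miR-322/-503 libraries, a log2 fold change of -1.22 ± 0.08 (SE; adjusted p = 3.14e-05). Ccnb1, the other mitotic B-type cyclin, went from 50.03, 50.1 and 43.5 CPM to 29.1, 32.0 and 27.7 CPM (log2 fold change -0.69 ± 0.09). The intervals of these log2 fold changes, -1.40 to -1.04 for Ccnb2 and -0.90 to -0.48 for Ccnb1 (95%), do not touch. Ccna2, the S and G2 phase cyclin A2, fell from 134, 144 and 140.3 CPM to 82.8, 90.02 and 89.7 CPM (log2 fold change -0.67 ± 0.06). Cdk1, the kinase that these cyclins activate, fell from 67.3, 77.7 and 63.3 CPM to 43.96, 49.4 and 43.8 CPM (log2 fold change -0.60 ± 0.09, adjusted p = 0.00249). For each of the 4 genes the groups did not overlap. Ccnb1 shares stretches of 75 bases with 5 other annotated genes, among them Ccnb1-ps, so its count is less certain than that of Ccnb2.

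The transcription factors Foxm1 and Mybl2, which activate the late cell cycle genes, were the only members that did not pass the test. Foxm1 had 51.5, 26.4 and 34.5 CPM in the control and 39.1, 22.2 and 16.4 CPM in the miR-322/-503 libraries, and its groups overlapped. Its log2 fold change was -0.53 ± 0.35 (adjusted p = 0.312), with a 95% interval from -1.35 to 0.29 that holds the median of the members as well as 0. Single libraries moved it widely, to -0.24 without control replicate 1 (adjusted p = 0.695), -0.29 without miR-322/-503 replicate 3 (0.610) and -0.96 without miR-322/-503 replicate 1 (0.0617). The coefficient of variation of Foxm1 was 34.2% in the control and 45.6% in the miR-322/-503 group, against at most 16.8% and 20.6% for any other member. The exons of Foxm1 overlap those of Tex52 and Gm44596 on the same strand, which had at most 12 and 29 counts in any library beside 1233 to 3988 for Foxm1. Mybl2, or B-Myb, had 12.5, 17.2 and 13.8 CPM in the control and 11.5, 11.3 and 10.1 CPM in the miR-322/-503 libraries, without overlap. Its log2 fold change was -0.40 ± 0.13 (adjusted p = 0.0637), and it passed the test in 2 of 15 other settings, with DESeq2 (adjusted p = 0.0436) and without control replicate 1 (adjusted p = 0.0382). Over the 15 settings its adjusted p reached 0.175, and without control replicate 2 its log2 fold change was -0.26 (adjusted p = 0.154). A miss of the threshold does not show that these factors were unchanged.

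All 5 kinases and entry factors were lower, from -0.92 to -0.59. Cdca3, a trigger of mitotic entry that promotes the loss of Wee1, showed the largest log2 fold change of the 5, -0.92 ± 0.07, from 49.0, 45.6 and 46.7 CPM to 25.7, 25.8 and 23.4 CPM. Aurka, the centrosomal Aurora A kinase, fell from 42.4, 44.1 and 39.2 CPM to 26.1, 23.6 and 24.9 CPM (log2 fold change -0.75 ± 0.08). These replicates were tight beside the distance between the groups. Plk1, the Polo-like kinase of centrosome maturation and mitotic entry, was the most uniform member in the miR-322/-503 group, with 28.8, 28.9 and 28.9 CPM there and 42.7, 45.6 and 42.2 CPM in the control (log2 fold change -0.59 ± 0.07). Nek2, which separates the centrosomes, had 15.2, 13.8 and 12.7 CPM in the control and 9.82, 8.75 and 8.84 CPM in the miR-322/-503 libraries. Melk, a leucine zipper kinase of dividing cells, had 25.2, 27.0 and 24.2 CPM in the control against 16.1, 17.9 and 16.04 CPM. Nek2 and Melk fell alike, by 0.61 on the log2 scale each.

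The spindle checkpoint delays anaphase until every kinetochore is attached. Its 3 members were lower by unequal amounts. Bub1b, which encodes BubR1, fell from 59.1, 55.0 and 53.8 CPM to 32.1, 33.1 and 32.4 CPM (log2 fold change -0.78 ± 0.06, adjusted p = 0.000105). Ttk, the Mps1 kinase at the top of the checkpoint, fell from 27.0, 26.4 and 31.3 CPM to 14.98, 15.1 and 18.2 CPM (log2 fold change -0.81 ± 0.11). Bub1 showed the smallest change of all 35 members, from 37.9, 35.4 and 41.8 CPM to 31.3, 29.7 and 32.3 CPM, or 81.0% of control (log2 fold change -0.30 ± 0.08, adjusted p = 0.0312). The interval of Bub1, -0.50 to -0.11, lies above that of Bub1b, -0.93 to -0.63 (95%). The call on Bub1 did not hold in 7 of 15 other settings, with adjusted p = 0.0774 without control replicate 1, 0.0757 without control replicate 3, and 0.0843, 0.0945 and 0.0601 without miR-322/-503 replicate 1, 2 and 3.

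The anaphase group had a median log2 fold change of -0.87 over 3 members, the lowest median of the roles. Cdc20, the activator that directs the anaphase-promoting complex to securin and cyclin B, fell the most of all 35. It had 62.3, 59.0 and 50.9 CPM in the control and 22.2, 24.98 and 21.3 CPM in the miR-322/-503 libraries, or 39.8% of control (log2 fold change -1.33 ± 0.10, adjusted p = 8.01e-05). Even the lowest control library held more Cdc20 than any miR-322/-503 library by a wide margin. Pttg1, which encodes securin, fell from 39.4, 41.6 and 37.2 CPM to 20.1, 23.9 and 20.5 CPM (log2 fold change -0.87 ± 0.09). Espl1, the separase that securin restrains, fell from 36.6, 35.5 and 38.2 CPM to 21.9, 23.9 and 20.2 CPM (log2 fold change -0.74 ± 0.09). Cdc20 overlaps exons of Elovl1 on the opposite strand, and whether the counting used strand was not given in the sources used here.

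All 5 kinetochore members were lower, with log2 fold changes from -0.70 to -0.46. Nuf2 and Ndc80 code for partner subunits of the Ndc80 complex, which binds spindle microtubules. Nuf2 had 50.7, 49.9 and 50.6 CPM in the control and 30.8, 31.7 and 30.4 CPM in the miR-322/-503 libraries, and Ndc80 had 31.2, 28.8 and 31.7 CPM against 20.5, 19.2 and 22.4 CPM. Their log2 fold changes were -0.70 ± 0.06 and -0.56 ± 0.09, with overlapping intervals. Cenpe, a kinetochore motor, fell from 75.01, 72.8 and 80.8 CPM to 48.4, 46.7 and 49.3 CPM. Cenpf, a large protein of the outer kinetochore that peaks in G2, fell from 99.6, 93.6 and 106 CPM to 57.7, 65.2 and 66.4 CPM. Both had a log2 fold change of -0.66. Cenpa, the histone H3 variant of the centromere, changed least of the 5, from 28.7, 25.8 and 24.0 CPM to 21.5, 17.5 and 18.04 CPM (log2 fold change -0.46 ± 0.11, adjusted p = 0.0192). It missed the threshold without control replicate 1 (adjusted p = 0.0616), miR-322/-503 replicate 2 (0.0647) or replicate 3 (0.0673).

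The chromosomal passenger complex corrects faulty attachments and guides cytokinesis, and its 4 subunit genes were all lower. Birc5, or survivin, fell from 44.5, 49.1 and 42.9 CPM to 27.4, 26.8 and 24.6 CPM (log2 fold change -0.79 ± 0.08). Cdca8, or borealin, fell from 21.02, 21.2 and 19.2 CPM to 13.2, 11.9 and 11.9 CPM (log2 fold change -0.73 ± 0.09). Aurkb, the Aurora B kinase of the complex, fell from 24.1, 19.4 and 18.2 CPM to 15.6, 11.6 and 10.7 CPM (log2 fold change -0.70 ± 0.17, adjusted p = 0.0190). Its spread was wider than that of its partners. Aurkb missed the threshold without control replicate 1 (adjusted p = 0.0608), miR-322/-503 replicate 2 (0.0678) or replicate 3 (0.0625). Incenp, the scaffold of the complex, fell less, from 57.7, 71.3 and 60.0 CPM to 45.7, 49.4 and 50.4 CPM (log2 fold change -0.38 ± 0.09, adjusted p = 0.0190). It missed the threshold without miR-322/-503 replicate 1 (adjusted p = 0.0643) or replicate 2 (0.0509). The interval of Incenp, -0.59 to -0.16, did not reach that of Birc5, -0.98 to -0.60 (95%).

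For spindle assembly, Kif11 and Tpx2 were both lower. Kif11, the Eg5 motor that pushes the poles apart, fell from 34.0, 32.2 and 36.4 CPM to 23.2, 24.1 and 26.1 CPM (log2 fold change -0.49 ± 0.08). Tpx2, which activates Aurora A on the spindle, fell from 107, 112 and 109 CPM to 67.3, 71.8 and 71.3 CPM (log2 fold change -0.64 ± 0.05). Neither gene had overlapping groups.

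The central spindle and the contractile ring complete division, and all 5 of their genes were lower. Kif23, the MKLP1 motor of centralspindlin, fell from 54.6, 58.0 and 54.7 CPM to 26.1, 30.1 and 29.7 CPM, or 51.3% of control (log2 fold change -0.96 ± 0.08). Anln, which encodes the ring protein anillin, was the most abundant of the 5 by TPM, with 189, 195 and 192 CPM in the control and 113, 122 and 119 CPM in the miR-322/-503 libraries (log2 fold change -0.70 ± 0.06). Ect2, the RhoA exchange factor that sets the cleavage plane, fell from 43.4, 39.6 and 41.9 CPM to 27.1, 25.5 and 24.9 CPM. The fall of Ect2, 0.69 on the log2 scale, was close to that of Anln. Kif20a, the MKLP2 motor that carries the passenger complex to the midzone, fell from 116, 127 and 111 CPM to 67.7, 72.4 and 70.3 CPM (log2 fold change -0.75 ± 0.07). Prc1, which bundles the midzone microtubules, changed less, from 84.2, 88.2 and 73.1 CPM to 55.7, 63.4 and 62.4 CPM (log2 fold change -0.44 ± 0.09, adjusted p = 0.00840).

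Mki67 and Top2a act on the chromosomes themselves, and both were lower. Mki67, which encodes the proliferation antigen Ki-67, had 319, 347 and 362 CPM in the control and 193, 204 and 213 CPM in the miR-322/-503 libraries (log2 fold change -0.75 ± 0.07, adjusted p = 0.000229). Top2a, the topoisomerase that untangles sister chromatids, had 272, 255 and 278 CPM in the control against 180.4, 170.9 and 188 CPM (log2 fold change -0.58 ± 0.06). In both genes the lowest control library stood well above the highest miR-322/-503 library.

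**Figure D3:**
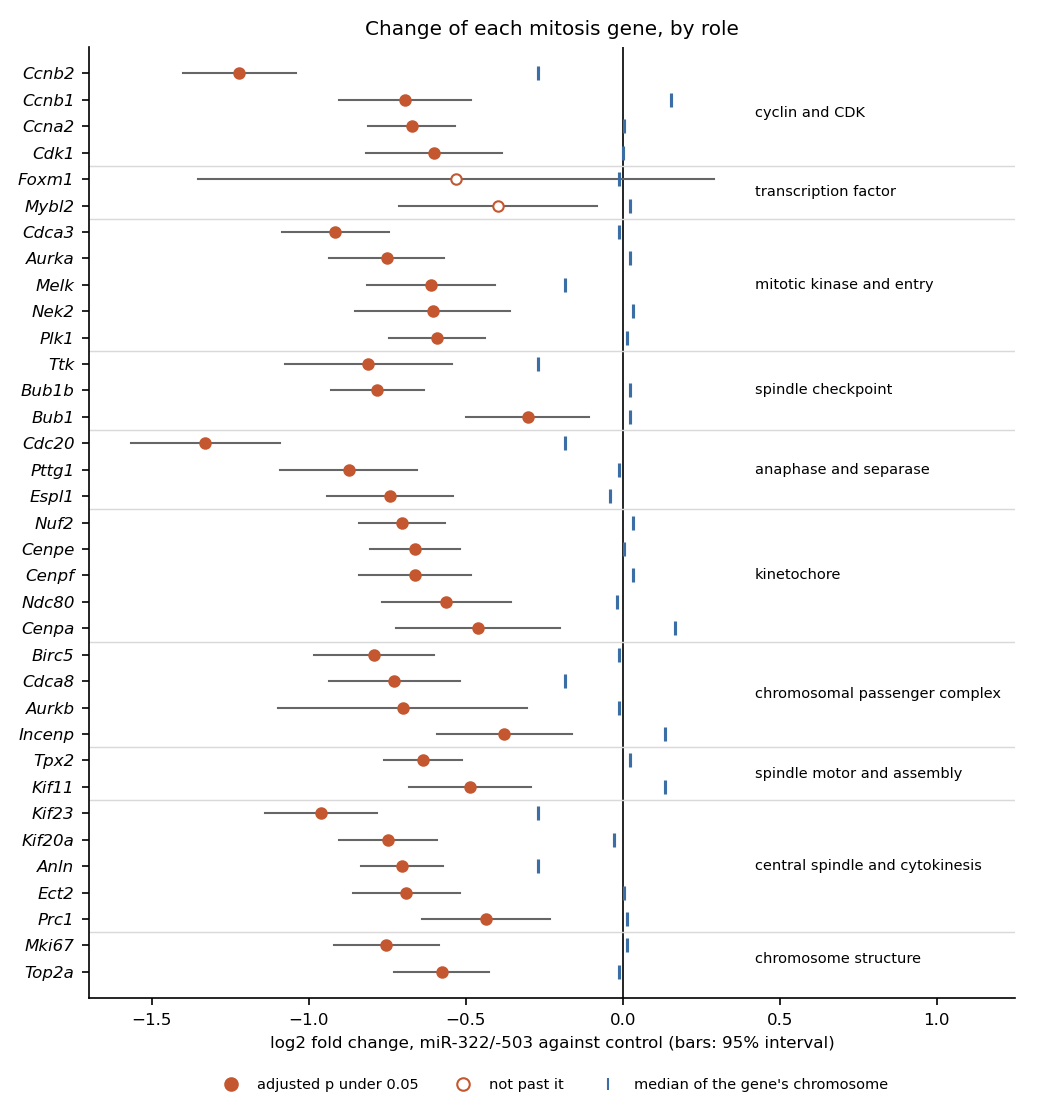
log2 fold change of each mitosis gene between the miR-322/-503 and control groups (n = 3 each), with 95% intervals as bars, grouped by role. Filled points passed an adjusted p of 0.05 and the open points, Foxm1 and Mybl2, did not. Blue ticks give the median of all tested genes on the chromosome of each member, from -0.27 on chromosome 9 upward.

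The members lie on 15 chromosomes. The median log2 fold change of all tested genes differed between chromosomes, and 4 members (Ccnb2, Ttk, Kif23 and Anln) lie on chromosome 9, where it was -0.27 over 1014 genes. After subtraction of the chromosome's own median, the members ranged from -1.15 to -0.33 with a median of -0.67. The 4 genes on chromosome 9 had a median of -0.89 before and -0.62 after subtraction. The part of these chromosome shifts in the changes of single genes was not tested.

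Counting was uncertain for 19 members, which share a stretch of 75 bases with another annotated gene, 9 of them with overlapping exons. The other 16 members were all lower, 16 of 16, with a median log2 fold change of -0.70, beside -0.69 for the whole set.

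Genes of mitosis outside the set were taken from 4 further lists, 136 genes in all, of which 134 were tested. Of these, 65 were lower (48.5%) and 4 higher (2.99%), beside 15.5% and 13.2% of all genes tested. The median log2 fold change of the 134 was -0.35, with quartiles of -0.57 and -0.11. The lists mix genes that fell like the members with others near 0, such as Aspm at -0.95 and Anapc1 at 0.02. The count of 4 higher fell to 1 without control replicate 1, control replicate 2 or miR-322/-503 replicate 2 and with both limma fits, and to 2 without miR-322/-503 replicate 1 or 3 or with no filter. It was 6 with DESeq2, its size factors, upper quartile scaling, counts divided by 4 or the replicate block. The spindle and cytokinesis list came closest to the 35 members, with 23 of 36 lower, 1 higher and a median of -0.55. Ckap2, a spindle microtubule protein, led it, from 65.2 ± 4.13 CPM to 26.5 ± 1.81 CPM (SD, n = 3 each; log2 fold change -1.30 ± 0.08). Fam83d, a spindle protein, had a log2 fold change of -1.06 ± 0.13, and Kif18b, a kinesin of microtubule ends, one of -0.98 ± 0.11.

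Of the mitotic entry and exit regulators, 16 of 33 were lower and 1 was higher (median -0.24). The phosphatase gene Cdc25c, an activator of Cdk1, fell from 16.1 ± 1.04 CPM to 7.504 ± 0.952 CPM (log2 fold change -1.10 ± 0.12), Troap had a log2 fold change of -1.03 ± 0.09 and Gtse1 one of -0.92 ± 0.08. The related phosphatase gene Cdc25b was the 1 that rose, from 29.8 ± 2.75 CPM to 40.1 ± 2.42 CPM (log2 fold change 0.43, adjusted p = 0.0113). Other kinetochore and checkpoint genes were lower in 16 of 42 cases and higher in 1, Cenpt (median -0.29). Spc24, a subunit of the Ndc80 complex, had a log2 fold change of -1.24 ± 0.13, Ska1 one of -1.01 ± 0.17 and Cenps one of -0.90 ± 0.25. Of the partners of Spc24 in that complex, Nuf2 and Ndc80 stood at -0.70 and -0.56. Spc25, the remaining subunit, stood at -0.29 ± 0.21, with overlapping groups, and did not pass the test. The differences between these genes were not tested. The condensin and cohesin list holds genes of these complexes, which fold and hold the chromatids, and of factors that act with them. Its genes were lower in 10 of 23 cases and higher in 1, Pds5b (median -0.30). The largest falls were in Cdca2 (-0.69 ± 0.08), Cdca5 (-0.58 ± 0.10) and Kif4 (-0.52 ± 0.07), none of them a core subunit. Of the SMC core subunits, Smc2 (-0.37) was lower, while Smc4 (-0.43), Smc1a (-0.16) and Smc3 (0.01) did not pass the test. Clasp1 was the 1 spindle gene that rose. Those 4 rising genes were singled out after their values were seen.

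**Figure D4:**
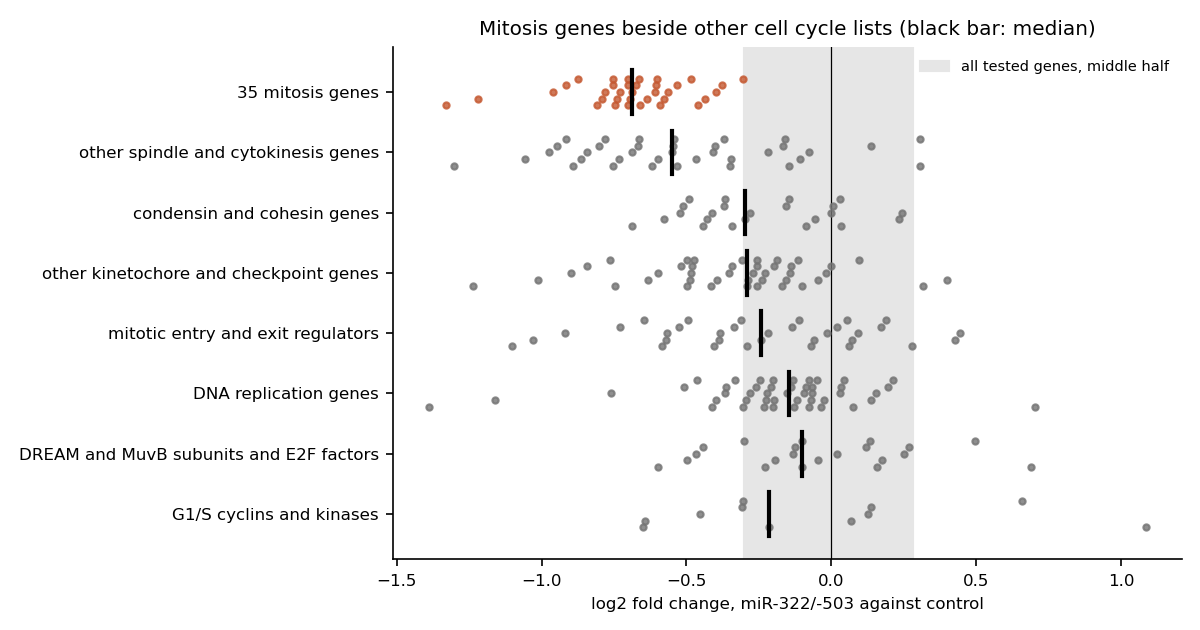
log2 fold change of each tested gene (points) in the 35 mitosis genes and in 7 other cell cycle lists, with the median of each list as a black bar and the quartile range of all tested genes shaded. The 35 mitosis genes lie wholly below 0 with a median of -0.69, against -0.55 for other spindle and cytokinesis genes and -0.15 for DNA replication genes.

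DNA replication genes, which are expressed from late G1 into S phase, moved much less. Over all genes tested 15.5% were lower and 13.2% higher. Of the 46 replication genes tested, 12 were lower (26.1%) and 2 higher (4.35%), with a median log2 fold change of -0.15. Their summed level was 1706 ± 83.5 TPM in the control and 1488 ± 97.4 TPM in the miR-322/-503 libraries, or 87.2% of control beside 60.4% for the mitosis genes. Only Dbf4 and Orc6 passed the test with a log2 fold change below -1. Dbf4, the activator of the Cdc7 kinase at origins, fell from 45.3 ± 0.68 CPM to 17.3 ± 1.83 CPM (log2 fold change -1.39 ± 0.09), and the origin recognition subunits Orc6 and Orc1 had log2 fold changes of -1.16 ± 0.07 and -0.76 ± 0.13.

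In each miR-322/-503 library taken alone the order of the lists was the same. Measured from the mean of the control, the 35 mitosis genes had a median on the log2 scale of -0.68, -0.67 and -0.68 in the miR-322/-503 libraries, the other mitosis genes one of -0.36, -0.37 and -0.30, and the DNA replication genes one of -0.14, -0.12 and -0.20. The control libraries gave medians of 0.00057, 0.020 and -0.055 for the 35 mitosis genes. No single library carried the difference.

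**Figure D5:**
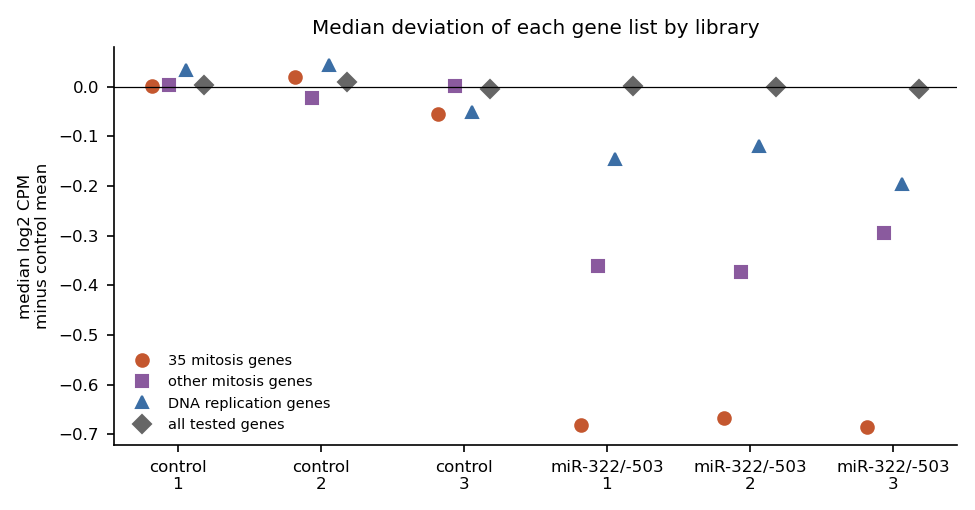
Median deviation from the control mean, in log2 CPM, of 4 gene lists in each of the 6 libraries. The 35 mitosis genes lie near 0 in the control libraries and between -0.68 and -0.67 in the miR-322/-503 libraries, below the other mitosis genes and the DNA replication genes.

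Regulators upstream of the mitotic program were followed as a list. Among subunits of DREAM and MuvB and the E2F factors, 5 of 21 were lower (23.8%) and 2 higher (9.52%), beside 15.5% and 13.2% of all genes tested (median -0.10). E2f7, a repressor of the E2F program, fell from 26.6 ± 1.43 CPM to 17.6 ± 2.91 CPM (log2 fold change -0.60 ± 0.13). Nfyc, a subunit of the CCAAT-binding factor NF-Y, fell from 58.8 ± 4.44 CPM to 41.6 ± 7.47 CPM (log2 fold change -0.50 ± 0.13). E2f4, the E2F of the DREAM complex, rose from 60.8 ± 4.18 CPM to 85.7 ± 3.403 CPM (log2 fold change 0.50 ± 0.07). Other DREAM genes fell, namely the pocket protein genes Rbl2 (-0.47 ± 0.07) and Rbl1 (-0.44 ± 0.08) and the MuvB gene Lin9 (-0.30 ± 0.09). E2f3 was the other gene of the list that was higher (0.25 ± 0.07).

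Among G1/S cyclins and kinases, 2 of 11 were lower and 2 higher (18.2% each), near the 15.5% and 13.2% of all genes tested. Ccnd1, which encodes cyclin D1, had 201, 220 and 215 CPM in the control and 123, 133 and 150 CPM in the miR-322/-503 libraries (log2 fold change -0.65 ± 0.08), and Chek1, the checkpoint kinase, had a log2 fold change of -0.65 ± 0.10. Ccnd3, the D-type cyclin of differentiated muscle, rose from 52.2, 56.6 and 83.6 CPM to 89.2, 170.4 and 149 CPM (log2 fold change 1.09 ± 0.26), with a wide spread, and Cdk6 rose from 51.4 ± 1.93 CPM to 80.995 ± 6.001 CPM (log2 fold change 0.66 ± 0.07).

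Of the 5 CDK inhibitors tested, 3 were lower and 0 higher, beside 15.5% and 13.2% of all genes tested. Cdkn1a (p21), the inhibitor tied to myoblast exit from the cycle, had 621, 621 and 591 CPM in the control against 646, 649 and 643 CPM (log2 fold change 0.08, adjusted p = 0.277), and for Cdkn1b (p27) the log2 fold change was -0.01 (adjusted p = 0.961). Cdkn2c and Cdkn2d, of the INK4 class, had log2 fold changes of -0.55 ± 0.09 and -0.78 ± 0.14. Cdkn1c (p57) was counted 205, 308 and 271 times in the control but 5, 0 and 4 times with miR-322/-503, at least 21.5-fold lower when a floor of 3 read pairs (12 counts) per library is taken for the latter.

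Markers of other cell types and states were followed beside the mitosis genes. Their counts stand beside 15.5% lower and 13.2% higher over all genes tested. Myotube markers were higher in 14 of 20 cases and lower in 2, with a summed level of 5392 to 6219 TPM in the control and 7843 to 8608 TPM in the miR-322/-503 libraries. Myl1, a fast muscle myosin light chain, rose from 77.7 ± 10.8 CPM to 281 ± 28.5 CPM and Casq2, a calcium store protein, from 88.8 ± 7.86 CPM to 201 ± 4.35 CPM. The 2 that fell were Myh1, an adult myosin heavy chain (log2 fold change -1.43 ± 0.11), and Myog, myogenin (log2 fold change -0.74).

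Markers of myoblasts and reserve cells, the mononuclear cells that can still divide, were lower in 3 and higher in 5 of 10 cases, with summed levels of 707 to 775 TPM and 728 to 824 TPM that overlapped. Cd34 fell from 247 ± 29.4 CPM to 83.0 ± 13.1 CPM, while Spry1 (log2 fold change 0.98 ± 0.09) and the Notch target Hey1 (log2 fold change 1.60 ± 0.15) rose. Pax7, Calcr and Chrdl2 of this list were at or under 12 counts in every library. Fibroblast markers were lower in 5 and higher in 2 of 9 cases, with summed levels of 6587 to 6850 TPM and 4186 to 4944 TPM. Col1a2, a chain of type I collagen, had a log2 fold change of -1.19 ± 0.04 and Lum, lumican, one of -3.19 ± 0.22. In contrast Dpt, dermatopontin, had one of 0.94 ± 0.15. Col1a1, the other chain of type I collagen, also rose, from 1835 ± 70.4 CPM to 2652 ± 125 CPM (log2 fold change 0.53 ± 0.05). Thy1 and Tcf21 were at or under 12 counts in every library.

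Markers of cells that a C2C12 culture should not hold were mixed, with many at or near 0 and others plainly counted. Of 8 macrophage markers Ptprc, Adgre1 and Itgam were at or under 12 counts in every library, and the list summed to 23.2 to 30.3 TPM in the control and 20.5 to 24.6 TPM in the miR-322/-503 libraries. Cd14 fell from 15.8 ± 1.35 CPM to 12.5 ± 0.57 CPM (log2 fold change -0.34 ± 0.10), and Lyz2 from 141, 78 and 88 counts to 0, 0 and 5. Cd68 had 2.47 ± 0.46 CPM in the control and 3.44 ± 0.37 CPM with miR-322/-503. Csf1r had 0.76 ± 0.26 and 0.64 ± 0.17 CPM, and Cx3cr1 had at most 0.253 CPM in any library. Cd68, Csf1r and Cx3cr1 did not pass the test. Of 6 endothelial markers, Cdh5, Emcn, Kdr, Pecam1 and Tie1 were at or under the same floor of 12 counts, and Tek rose from 1.13 ± 0.16 CPM to 4.201 ± 0.640 CPM. The list summed to at most 0.524 TPM in the control and 2.35 TPM in the miR-322/-503 libraries. Of 6 adipocyte markers, 5 were at or under the floor, and the list summed to 6.56 to 8.18 TPM and 7.34 to 8.95 TPM. Pparg, the other adipocyte marker, had 8.26 ± 0.94 CPM in the control and 9.36 ± 1.27 CPM with miR-322/-503, and did not pass the test. The part of the shifts in myotube and fibroblast markers in the fall of the mitosis genes was not tested.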

How the data were processed

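RNA-seq libraries of 6 C2C12 cultures, 3 per group, were analysed. The 35 members and the gene lists were chosen with earlier results of these data known. Per the labels and the methods, the authors used Trim Galore for trimming, HISAT2 for alignment (build GRCm38) and StringTie for the read count table. Tool versions, annotation and strand setting are not given in the sources used here. The deposited estimated counts were whole numbers, about 4 per read pair (75 covered bases per count), so 12 counts stand for 3 pairs. The deposited table of each library also gives coverage signal, FPKM and TPM. Coverage was used only to find the bases per count, FPKM was not used, and TPM served for levels between genes. A test for raw counts had been planned, and it was applied to the estimated counts as they stand.

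Genes were filtered by filterByExpr, scaled by TMM and tested with edgeR 4.0.16 (glmQLFit and glmQLFTest, R 4.3.3), with Benjamini-Hochberg adjustment over all 18140 tested genes. Errors of fold changes are standard errors and intervals are for 1 gene, without adjustment. DESeq2 1.42.0, limma 3.58.1 on log2(TPM + 1) and log2(TPM + 0.1), other scalings and filters, counts divided by 4, a replicate block and the omission of each library were tried as alternatives. The scripts were tested on simulated data. The study's methods call the replicates biological, and no library was a copy of another (chi-square per degree of freedom of 14.8 to 21.3 between libraries of a group). With each group being 1 line, p-values measure the spread between these cultures.

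Genes were named by a rule: all 35 members, the 3 strongest calls of at least 1 CPM in each other list, every call among G1/S genes and CDK inhibitors, and both microRNA genes. Myog, Cdkn1a, Cdkn1b, Cenpt, Pds5b, Clasp1 and Cdc25b were added after their values were seen. So were Spc25, Smc1a, Smc2, Smc3, Smc4, Aspm and Anapc1, as well as Rbl1, Rbl2, Lin9 and E2f3. The same holds for Col1a1, Cd68, Csf1r, Cx3cr1 and Pparg. Sequences came from RefSeq (GRCm38.p6) and, for 3′UTR sites, from GENCODE M21, in which 55154 of 55421 gene IDs were found.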

Additional observations from a re-analysis of the deposited data

How the results depend on the processing

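Over 15 other settings the count of lower members ran from 29 to 34 and that of higher members stayed at 0. Of the 35 by 15 member values, 508 kept their direction and their side of the threshold, 15 lost the call (Bub1, Aurkb, Cenpa and Incenp) and 2 gained it (Mybl2), and no direction turned. The median log2 fold change of the members ran from -0.70 to -0.66 when 1 library was left out (-0.66 without control replicate 1). Confined to members without overlap or shared sequence, a choice made after seeing the data, the count of lower members was 16 of 16.

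The count of other mitosis genes called higher, 4, was 2 with no filter and 1 with limma on either log2(TPM + 1) or log2(TPM + 0.1), 6 with DESeq2, DESeq2 size factors, upper quartile scaling, counts divided by 4 or the replicate block, 5 with at least 10 counts in every library, and from 1 to 5 when 1 library was left out. Without control replicate 1 or 2 or miR-322/-503 replicate 2 it was 1, and without miR-322/-503 replicate 1 or 3 it was 2. All tested genes called higher, 2401, came to 1580 with limma on log2(TPM + 0.1). The cause was not tested.

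Replicate numbers were shared by the groups, but deviations of same-numbered libraries correlated at 0.167, 0.0697 and 0.112 over 17114 genes, so the numbers were not taken to pair them. With a replicate block 33 members were lower, with a median of -0.69, and each control library correlated best with the miR-322/-503 library of its own number, a hint from the data and not from the design. Low counts limit the microRNA genes, at most 17 counts in a library, and not the members, each of which passed the filter. The cause of the low microRNA counts was not tested.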
